A study of Mus musculus with 4 samples.

Results

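Neurotrophic factors and their receptors were followed on 4 arrays of N2a (Neuro2a) cells, a line from a mouse neuroblastoma. The 8 genes were chosen by name: the ligand genes Bdnf, Ntf3 and Gdnf and the receptor genes Ntrk2, Ntrk3, Ngfr, Gfra1 and Gfra2. All targets annotated with one of these names were taken, which gave 18 of the 44170 targets on the array and 8 of 24171 genes. By the labels, 2 arrays held RNA of cells given a scramble siRNA, labelled as the control genotype, and 2 held RNA of cells given Men1 siRNA, labelled as Men1 knockdown. Both groups were the same cell line in serum-containing medium. Whether the replicates were separate cultures is not stated, so each p-value reflects array-to-array spread that may be purely technical.

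Neurotrophins are secreted growth factors that keep neurons alive and shape their axons and synapses. Brain-derived neurotrophic factor (Bdnf) signals through the receptor tyrosine kinase TrkB (Ntrk2) and neurotrophin-3 (Ntf3) mainly through TrkC (Ntrk3), while the p75 receptor (Ngfr) binds all neurotrophins. Glial cell line-derived neurotrophic factor (Gdnf) binds the membrane-anchored co-receptor Gfra1, and its relative neurturin binds Gfra2. Both co-receptors then engage the receptor tyrosine kinase Ret. Neurons of the sympathetic lineage, from which neuroblastoma arises, use both systems.

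Across targets, which are not independent replicates, the correlation of log2 levels was r = 0.948 between the scramble siRNA arrays and 0.945 between the Men1 siRNA arrays. Readings at 100 or more were treated as well above background, and per array 40.2% to 41.0% of targets did not reach that level. Men1, the targeted gene, read 6985 and 6222 on the scramble siRNA arrays against 2764 and 4109 on the Men1 siRNA arrays, a log2 change of −0.97 ± 0.35 (SE) that did not pass the threshold (limma, Benjamini-Hochberg adjusted p = 0.314). Its other target had −0.19. Markers of the labelled lineage differed in level. Of the 7 measured sympathoadrenal genes, Chga, a secretory granule gene, read 3178 to 6539 on the 4 arrays, and Th, which encodes an enzyme of catecholamine synthesis, 95.01 to 141.6. The forebrain neuron genes Tbr1 and Dlx1 read 1450 to 3150 and 4190 to 7355.

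None of the 8 genes passed the threshold of an adjusted p under 0.05, which 0.389% of all genes did (0.0372% higher and 0.352% lower with Men1 siRNA). Among the genes that passed, the smallest log2 change in size was 2.78, which none of the 8 reached, so not passing says little about differences of their size. Their adjusted p-values lay between 0.154 for Bdnf and 0.906 for Gdnf (limma, n = 2 arrays per group). At an unadjusted p under 0.05, 3 of the 8 were higher with Men1 siRNA (Bdnf, Ntrk3 and Gfra1), against 6.47% of all genes, and Ngfr alone was lower, against 7.74%. The groups did not overlap for 4 genes read higher with Men1 siRNA and 1 read lower, against 25.8% and 21.7% of all genes (47.5% in either direction). The log2 change was positive for 6 of the 8 genes and for 15 of the 18 targets, with medians of 0.56 and 0.54. Over all genes 54.5% were positive and the median was 0.06. In such bulk RNA a smaller share of cells of a type and less RNA per cell cannot be told apart.

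**Figure D1:**
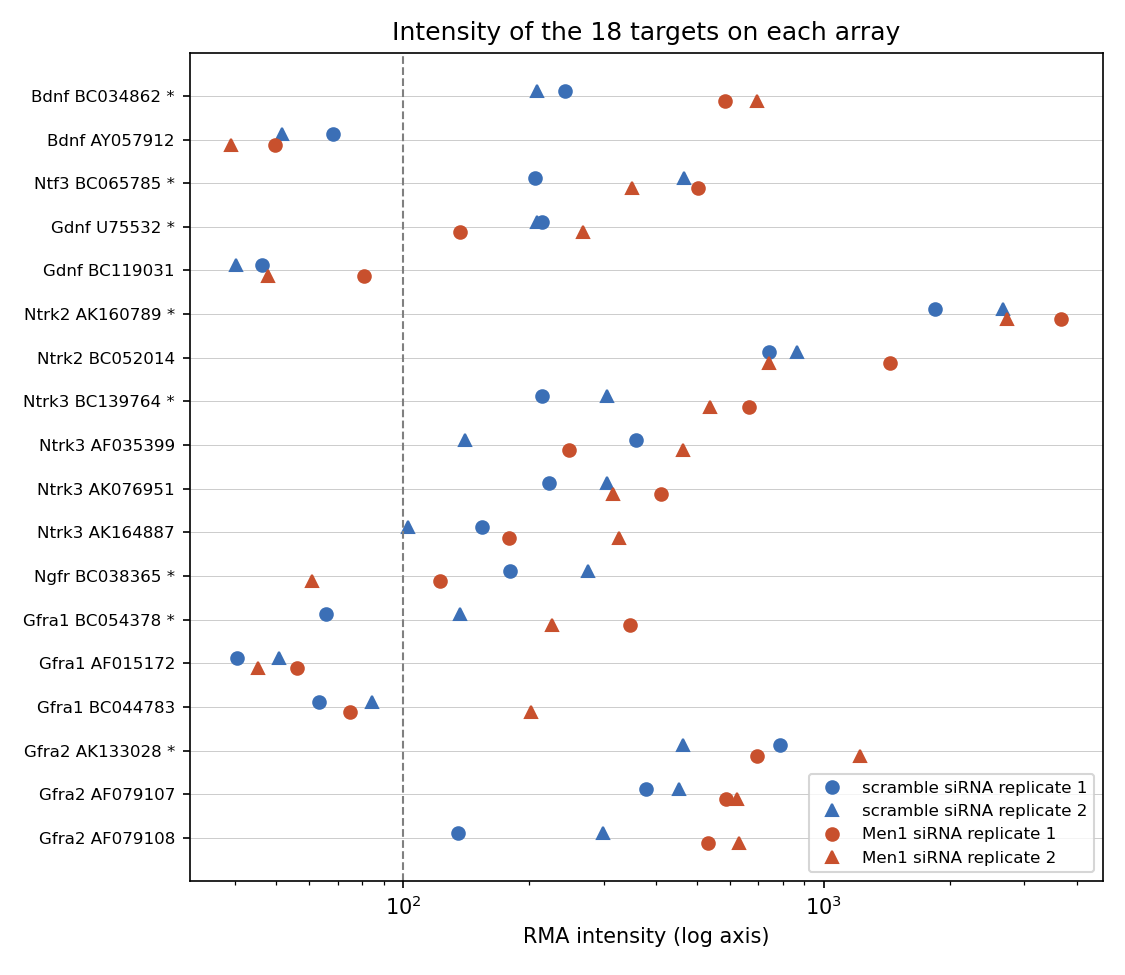
Robust multi-array average intensity (log axis) of the 18 targets of the 8 genes on each of the 4 arrays; blue is scramble siRNA, red Men1 siRNA, circles replicate 1 and triangles replicate 2. A star marks the target that stands for its gene, and the dashed line is an intensity of 100, below which 3 targets lie on all arrays; the red points of the starred Bdnf, Ntrk3 and Gfra1 targets lie right of the blue ones, and those of Ngfr left.

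Upstream sequences are given for the genes with the largest positive and the largest negative differences, so that the letters before their start sites can be compared. They are the 250 bases before a RefSeq start site, from the RefSeq promoter table on GRCm38.p6, a different build from the array annotation (MM9). That table held 14 start sites for 6 of the 8 genes, of which 7 were of Bdnf. Capitals mark a half-site of the cyclic AMP response element (CRE, CGTCA or its complement TGACG) or a GC box (GGGCGG or CCGCCC), searched on both strands.

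Bdnf, the start site numbered 3 in the table, chr2:109692186-109692435, plus strand: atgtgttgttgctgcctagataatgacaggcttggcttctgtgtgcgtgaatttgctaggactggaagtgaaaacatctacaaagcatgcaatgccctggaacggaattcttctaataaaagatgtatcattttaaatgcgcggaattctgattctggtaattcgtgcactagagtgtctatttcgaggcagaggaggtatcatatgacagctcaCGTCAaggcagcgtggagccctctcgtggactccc
Gfra1, chr19:58455399-58455648, minus strand: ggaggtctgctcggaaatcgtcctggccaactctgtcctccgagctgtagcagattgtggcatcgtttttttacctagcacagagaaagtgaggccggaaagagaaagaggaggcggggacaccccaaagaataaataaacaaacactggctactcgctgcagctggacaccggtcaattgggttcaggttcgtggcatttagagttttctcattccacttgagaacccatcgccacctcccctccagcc
Ngfr, chr11:95587699-95587948, minus strand: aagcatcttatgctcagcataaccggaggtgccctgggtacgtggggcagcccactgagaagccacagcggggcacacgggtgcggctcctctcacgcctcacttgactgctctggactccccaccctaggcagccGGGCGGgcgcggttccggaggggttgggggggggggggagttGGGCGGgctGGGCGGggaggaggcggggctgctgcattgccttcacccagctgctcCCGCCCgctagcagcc

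The Bdnf window held 1 CRE half-site, starting 35 bases before the start site, and no GC box. It was the only one of the 7 Bdnf windows with a half-site, which 17.8% of all 32851 windows of this length held. Bdnf windows 2 and 4, not shown, held 2 and 1 GC boxes, so the printed window does not stand for all 7. The Ngfr window held 4 GC boxes and no half-site, and 32.7% of all windows held a GC box. Neither string was in the Gfra1 window. The GC content was 45.6% for this Bdnf window, 52.4% for Gfra1 and 70.4% for Ngfr, against a median of 52.4% over all windows. These matches describe letters, not binding sites.

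Among the ligand genes, Bdnf had the clearest difference. Its target BC034862 (gene ID 12064, chromosome 2, 109563536 to 109564667 on MM9) read 243.2 and 207.9 on the scramble siRNA arrays against 582.6 and 695.4 on the Men1 siRNA arrays. Both Men1 siRNA arrays were above both scramble siRNA arrays, and all 4 readings were above 100. The means were 225.6 ± 24.9 and 639.0 ± 79.8 (SD, n = 2), a ratio of 2.83. The log2 change was 1.50 ± 0.32 (SE), with a 95% confidence interval of 0.71 to 2.30, and did not pass (limma adjusted p = 0.154). In the fit limited to the authors' value table, which holds only targets at 100 or more on every array, the same readings gave an adjusted p of 0.0334 in limma. That fit passed 418 genes, against 94 in the main fit.

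The other Bdnf target, AY057912, covers 50.01 kb of the gene (chromosome 2, 109517188 to 109567200) and read between 39.0 and 68.3 on the 4 arrays. It was not well above background on any array, so it gives no second measurement of Bdnf. Its fitted change had the opposite sign, −0.43 ± 0.35 (SE), and the mean of both targets was 0.54. The Bdnf difference therefore rests on 1 target of 1.13 kb.

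Ntf3, which encodes neurotrophin-3, has 1 target (BC065785, chromosome 6, 126051429 to 126114939). It read 206.7 and 465.4 on the scramble siRNA arrays against 504.2 and 351.1 on the Men1 siRNA arrays, and the groups overlapped. The log2 change was 0.44 ± 0.49 (SE; 95% interval −0.78 to 1.66; limma adjusted p = 0.718). Its sign turned without scramble siRNA replicate 1, to −0.15. Scramble siRNA replicate 2 and Men1 siRNA replicate 1 were the 2 highest arrays for Ntf3. They were also the highest for the summed level of 8 astrocyte markers, at 13759 and 15745 against 8468 and 10227 on the other arrays. Among these markers Fabp7 alone read 5504 and 5642 against 1707 and 2247. The same arrays were highest for the summed oligodendrocyte and Schwann cell markers, at 6691 and 6689 against 5761 and 6074, so the match is not particular to astrocyte markers. The part of these markers in the Ntf3 values was not tested.

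Gdnf, the ligand of Gfra1, was represented by U75532 (chromosome 15, 7761010 to 7787575). It read 213.7 and 208.3 on the scramble siRNA arrays against 136.9 and 268.6 on the Men1 siRNA arrays. The Men1 siRNA arrays lay on either side of the scramble siRNA arrays, and the log2 change was −0.14 ± 0.42 (SE; 95% interval −1.18 to 0.91; limma adjusted p = 0.906). Without Men1 siRNA replicate 1 it was 0.35. The second Gdnf target, BC119031, stayed between 40.1 and 81.0 and was not well above background.

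**Figure D2:**
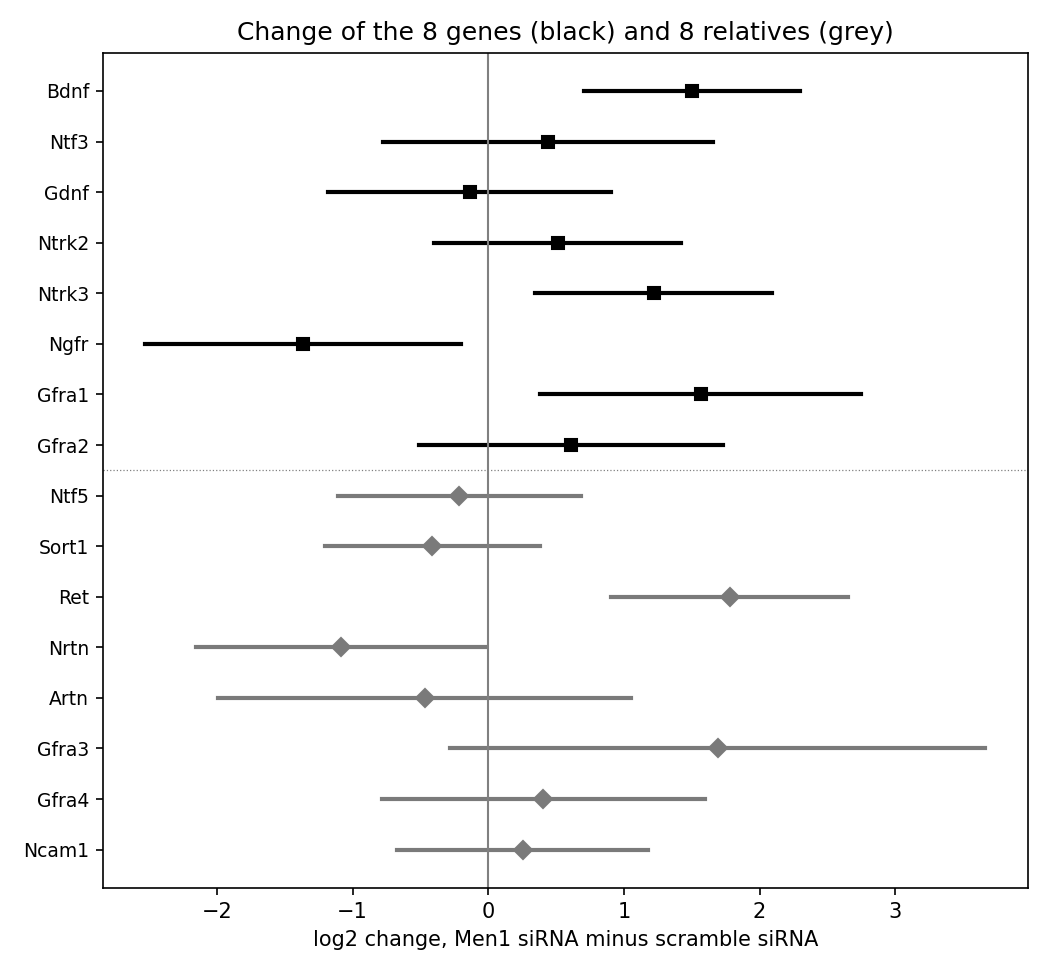
Log2 change, Men1 siRNA minus scramble siRNA, with its 95% confidence interval from limma, for the 8 genes (black squares) and 8 further genes of the same systems (grey diamonds), each from 2 arrays per group. The intervals of Bdnf, Ntrk3 and Gfra1 lie above 0 and that of Ngfr below 0, from −2.53 to −0.20, before adjustment for the number of genes tested.

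The Trk receptor genes read higher with Men1 siRNA on both arrays at the target that stands for each gene. Ntrk2, the TrkB gene, has the target AK160789 across chromosome 13, 58907956 to 59231328. It read 1843 and 2675 on the scramble siRNA arrays against 3669 and 2732 on the Men1 siRNA arrays. The lower Men1 siRNA array was barely above the higher scramble siRNA array, and the log2 change was 0.51 ± 0.37 (SE; 95% interval −0.40 to 1.42; limma adjusted p = 0.572). The second target, BC052014 (58909641 to 59038392), ends 192.9 kb before the first. It read 742.8 and 864.7 on the scramble siRNA arrays against 1439 and 742.2 on the Men1 siRNA arrays, so that 1 array was high and the groups overlapped, with a log2 change of 0.37 ± 0.43 (SE).

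Ntrk3, the TrkC gene, has 4 targets on chromosome 7, and the log2 change was positive at all 4. The target that stands for the gene, BC139764 (85447514 to 85722769), read 214.6 and 306.4 on the scramble siRNA arrays against 664.4 and 535.8 on the Men1 siRNA arrays. The groups were apart, with a mean of 260.5 ± 64.9 against 600.1 ± 90.9 (SD, n = 2) and a log2 change of 1.22 ± 0.35 (SE; 95% interval 0.34 to 2.09; limma adjusted p = 0.243).

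The other Ntrk3 targets had smaller changes. AF035399, named in the array annotation as a non-catalytic TrkC form, which lacks the kinase domain, read 358.4 and 140.6 on the scramble siRNA arrays against 248.4 and 463.6 on the Men1 siRNA arrays. These groups overlapped, and the log2 change was 0.60 ± 0.57 (SE). AK076951, named there as similar to a truncated TrkC, had 0.46 ± 0.36, and AK164887, an 11.0 kb span away from the other 3, had 0.94 ± 0.44, both without overlap. The mean over the 4 targets was 0.80. Full-length and truncated forms could not be told apart further, because the files give the span of a target and not the position of its 3 probes.

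**Figure D3:**
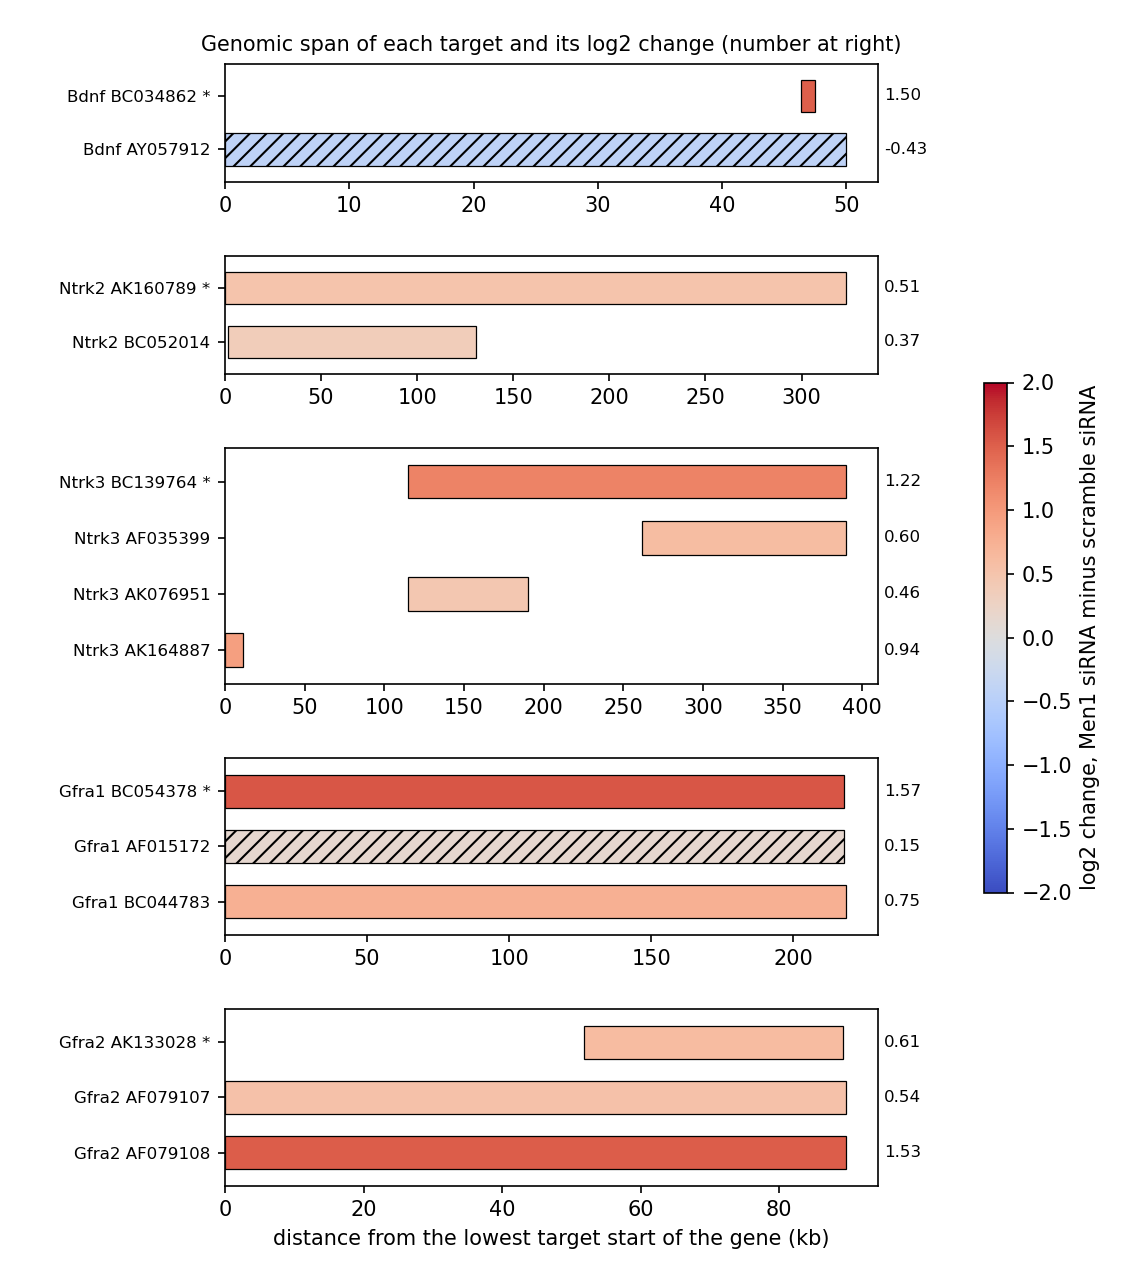
Genomic span of each target of Bdnf, Ntrk2, Ntrk3, Gfra1 and Gfra2, as distance in kb from the lowest target start of that gene, coloured by log2 change (Men1 siRNA minus scramble siRNA), with the value at the right. Hatched targets were under an intensity of 100 on all 4 arrays; the 4 Ntrk3 targets and the 3 Gfra2 targets are all positive, while the Bdnf difference comes from the short span alone.

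Ngfr, which encodes the p75 receptor, was the gene of the 8 with the largest negative difference. Its single target BC038365 (chromosome 11, 95430139 to 95449003) read 179.5 and 276.1 on the scramble siRNA arrays against 122.7 and 60.8 on the Men1 siRNA arrays. Both Men1 siRNA arrays were below both scramble siRNA arrays, and 1 of them was under 100, so the size of the difference is less certain. The log2 change was −1.37 ± 0.47 (SE; 95% interval −2.53 to −0.20; limma adjusted p = 0.296). With values under 100 set to 100 it was −1.01.

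The GDNF co-receptor genes were also positive. Gfra1 (chromosome 19), at the target BC054378 (58311181 to 58528956), read 65.6 and 136.5 on the scramble siRNA arrays against 346.1 and 226.5 on the Men1 siRNA arrays. The groups were apart, but 1 scramble siRNA array was under 100. The log2 change was 1.57 ± 0.47 (SE; 95% interval 0.38 to 2.75; limma adjusted p = 0.258), and 1.26 with values under 100 set to 100.

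Other targets over the same stretch did not show this difference clearly. BC044783 read 63.1 and 84.3 against 74.9 and 201.3, with overlap, and AF015172 lay between 40.3 and 56.0 on all 4 arrays. The mean over the 3 Gfra1 targets was 0.82. A target with no gene name in the files, annotated as a GDNF receptor alpha transcript and placed at 58311181 to 58529849, read 96.0 and 109.2 against 128.8 and 78.8. The Gfra1 difference thus rests on 1 of its targets.

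Gfra2, the neurturin co-receptor gene (chromosome 14), was positive at all 3 of its targets. AK133028 (71341692 to 71379129), which stands for the gene, read 786.0 and 462.6 on the scramble siRNA arrays against 694.6 and 1222 on the Men1 siRNA arrays. The groups overlapped there, with a log2 change of 0.61 ± 0.45 (SE; 95% interval −0.51 to 1.73; limma adjusted p = 0.585). AF079107 and AF079108, annotated as the Gfra2b and Gfra2c forms and both placed at 71289936 to 71379645, were apart between the groups. AF079107 read 379.4 and 454.6 against 588.0 and 622.8, a log2 change of 0.54 ± 0.33 (SE). AF079108 read 135.3 and 298.9 against 532.2 and 630.9, a log2 change of 1.53 ± 0.46 (SE; limma adjusted p = 0.270 over all targets). The mean over the 3 targets was 0.89.

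The wider neurotrophin system was followed in 39 genes, chosen as ligands, receptors, adaptors, processing enzymes and target genes. Of these, 0 passed in either direction, 20 were positive and 19 negative, against 54.5% positive over all genes, and the median log2 change was 0.05, against 0.06. At an unadjusted p under 0.05 in limma there were 5 higher and 5 lower, against 6.47% and 7.74% of all genes. Ntf5, the gene of the other TrkB ligand, had a log2 change of −0.22 ± 0.36 (SE), and Sort1, the p75 partner sortilin, −0.41 ± 0.32.

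Downstream of the receptors, the Shc adaptor genes had opposite signs. Shc1, the widely expressed adaptor, read 3351 and 2908 on the scramble siRNA arrays against 625.8 and 953.3 on the Men1 siRNA arrays, a log2 change of −2.01 ± 0.36 (SE; limma adjusted p = 0.110). Its second target had −2.64. Shc3, the neuronal adaptor, read 774.0 and 1279 against 2109 and 2083, a log2 change of 1.07 ± 0.37 (SE; limma adjusted p = 0.300). The groups did not overlap for either gene.

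Traf6 and Irak1, which carry signals from p75 and from immune receptors, had −1.25 ± 0.34 and −1.60 ± 0.38 (SE). For Traf6 the other targets ranged from −0.70 to 0.51, and for Irak1 from −2.22 to −0.42. Plat, the tissue plasminogen activator gene whose product helps to activate pro-BDNF, had −1.39 ± 0.41 (SE), with −0.33 at its other target. Vgf, a neuropeptide gene inducible by neurotrophins, read 439.2 and 503.9 against 863.9 and 1245, a log2 change of 1.14 ± 0.35 (SE). Limma's adjusted p-values were 0.221 for Traf6, 0.182 for Irak1, 0.248 for Plat and 0.258 for Vgf. With a prior that follows intensity, Shc1, Irak1 and Plat passed (limma adjusted p = 0.00387, 0.0214 and 0.0334).

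The GDNF family system was followed in 26 further genes, of which 0 passed, 16 were positive and 10 negative, with a median of 0.12. At an unadjusted p under 0.05 in limma, 2 were higher and 2 lower, shares near those of all genes (6.47% and 7.74%). Its 6 receptor and co-receptor genes were all positive, as 54.5% of all genes were. Ret, the signalling receptor shared by GDNF and its relatives, read 80.2 and 54.4 on the scramble siRNA arrays against 212.0 and 243.2 on the Men1 siRNA arrays. Both scramble siRNA arrays were under 100, and Ret did not pass (limma adjusted p = 0.132). With those readings set to 100 it was at least 2.27-fold higher. The 95% interval of its log2 change, on the unchanged readings, was 0.91 to 2.65. Gfra3 was above 100 on 1 Men1 siRNA array only, at 260.0, and lay between 33.0 and 47.8 on the other 3. Gfra4 had 0.40 ± 0.48 (SE) with its other 5 targets between −0.40 and 1.54, and Ncam1, an alternative GDNF receptor, had 0.25 ± 0.37.

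Ligands of the family did not share a direction. Nrtn, the neurturin gene, read 315.7 and 301.7 on the scramble siRNA arrays against 102.1 and 206.9 on the Men1 siRNA arrays, a log2 change of −1.09 ± 0.43 (SE; limma adjusted p = 0.346). Gdf15, a stress-induced ligand of the Gfra relative Gfral, read 196.6 and 61.6 against 454.9 and 922.1, a log2 change of 2.56 ± 0.66 (SE; limma adjusted p = 0.208), with 2.30 at its other target. Artn, the artemin gene, had −0.47 ± 0.61 (SE), with other targets between −0.56 and 0.48.

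None of the adaptor and target genes of this system passed. Grb10, an adaptor that binds Ret, had −0.86 ± 0.32 (SE), with other targets between −0.62 and 0.42, and Dok5, a Ret substrate gene, 0.67 ± 0.34. Etv5, a transcription factor gene induced by GDNF in several tissues, had −0.72 ± 0.38. Grb7 had −0.74 ± 0.36 at the target that stands for it and −3.34 at the other, which stood for the gene and passed with a pseudocount of 32 (−2.88, limma adjusted p = 0.0320). Dok1 had −1.39 ± 0.73, with scramble siRNA replicate 1 at 1403 and the other 3 arrays between 232.2 and 300.2.

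Neuronal markers were read higher with Men1 siRNA, without a call. All 6 pan-neuronal markers were positive with 0 past the threshold, with a median of 0.49 and summed levels of 60902 to 70781 with scramble siRNA and 80685 to 86095 with Men1 siRNA. All 6 GABAergic neuron markers were positive too, with a median of 0.59 and sums of 8488 to 11143 and 14508 to 16137, as were all 6 measured cortical projection neuron markers, with a median of 0.70 and sums of 11216 to 17224 and 20513 to 22753. The 8 genes had a median of 0.56 but ranged from −1.37 (Ngfr) to 1.57 (Gfra1). At the target that stands for each gene, Gfra1 and Bdnf, at 1.50, were above the largest change among these markers, 1.23 for Gad2. As the mean of their targets, Gfra1 had 0.82 and Bdnf 0.54, and the other Gad2 targets had −0.002 and 1.30. Ntrk3 had 1.22, Gfra2 0.61 and Ntrk2 0.51. No marker in these lists was under 100 on all arrays. Their part in the values of Bdnf, Ntrk2, Ntrk3, Gfra1 and Gfra2 was not tested.

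The 7 sympathoadrenal neuroblast markers, of the lineage the label names, had a median of 0.19. Of these, 4 were positive and 3 negative, and 1 passed the threshold, lower with Men1 siRNA. Their summed levels were 9811 and 9063 on the scramble siRNA arrays against 7674 and 6053 on the Men1 siRNA arrays, lower on both. The lower sums rest on Gata2 alone. Without it, the sum of the other measured markers was higher on both Men1 siRNA arrays than on either scramble siRNA array. Chga, the brightest of them, read 3178 and 4484 against 6539 and 5266. Gata3 read 259.5 and 403.3 against 73.2 and 113.8, a log2 change of −1.83 ± 0.40 (SE; limma adjusted p = 0.162), with 0.16 at its other target. The one that passed was Gata2, a transcription factor gene, which read 6002 and 3452 against 83.9 and 83.5 (limma adjusted p = 0.0281). Its other target had −4.66. With its readings under 100 set to 100, Gata2 was at least 45.5-fold lower. It did not pass with any 1 array left out, when 0 of all genes did in limma. The part of these markers in the values of the 8 genes was not tested.

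Markers of non-neural cells were read lower with Men1 siRNA, the direction of Ngfr. Of 10 fibroblast and mesenchyme markers 3 fell (Col1a1, Col1a2 and Col6a1), against 0.352% of all genes that passed lower. At the target that stands for each gene 9 were negative, with a median of −2.68. Summed levels were 44369 to 44963 with scramble siRNA and 8194 to 8450 with Men1 siRNA. The other Col1a2 targets had only −0.49 and −0.31, while Col1a1 and Col6a1 have 1 target each. Col1a1, a type I collagen chain, fell by 4.37 ± 0.34 (SE) on the log2 scale (limma adjusted p = 0.0327). With any 1 of the 4 arrays left out, 0 of all genes passed in limma, these 3 included. All 6 endothelial markers were negative with 0 past the threshold, with a median of −1.88 and sums of 4149 to 7368 and 1220 to 1319. Oligodendrocyte and Schwann cell markers, which include cells that express Ngfr, had sums of 5761 to 6691 with scramble siRNA and 6074 to 6689 with Men1 siRNA. Within them Sox10 had −1.16 ± 0.35 and Olig2 1.12 ± 0.34 (SE). Fap among the fibroblast markers was under 100 on all 4 arrays. The part of these markers in the Ngfr values was not tested.

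**Figure D4:**
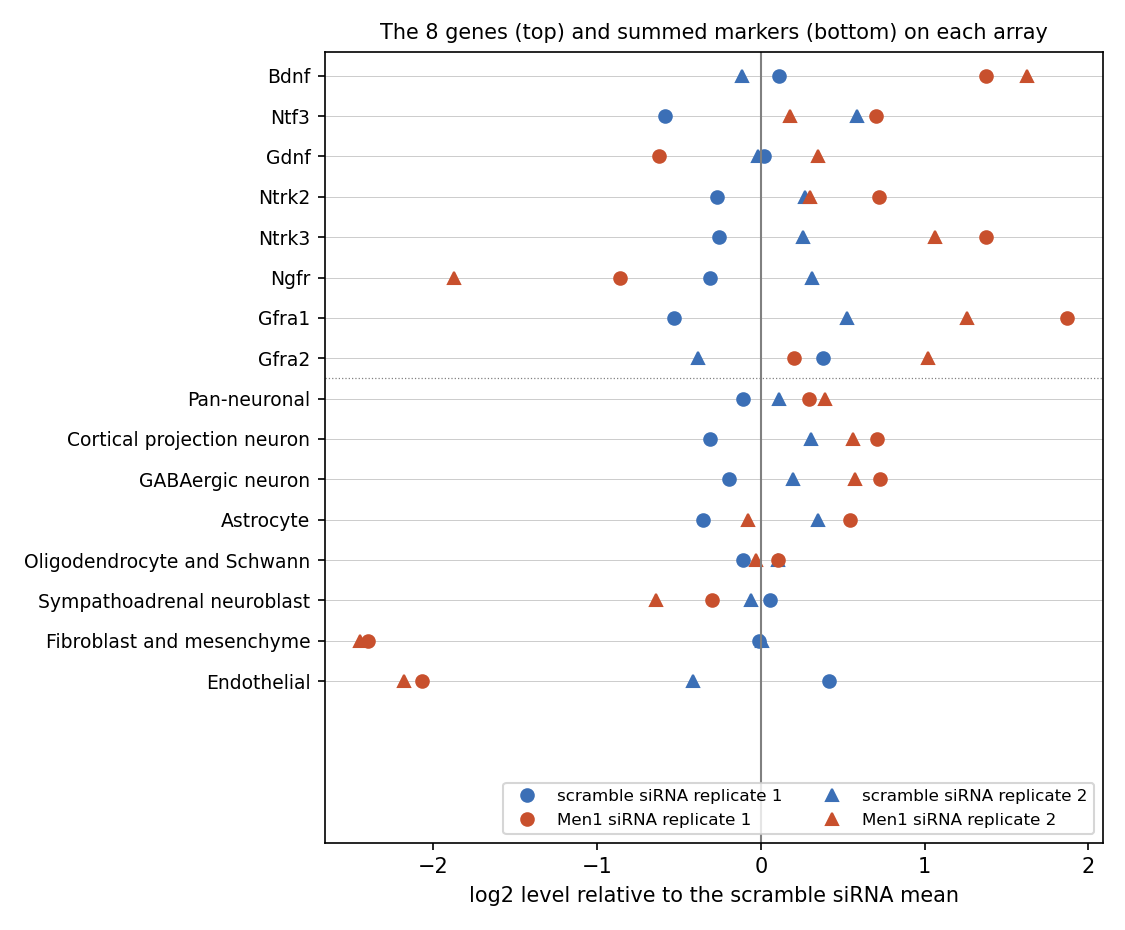
Log2 level on each array relative to the scramble siRNA mean, for the 8 genes (top) and for the summed intensity of each cell type marker list (bottom); blue is scramble siRNA, red Men1 siRNA, circles replicate 1 and triangles replicate 2. Neuronal lists lie right of 0 with Men1 siRNA, and fibroblast and endothelial lists lie more than 2 log2 units left of it, with Ngfr at −0.86 and −1.87.

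Among the genes whose 4-array profile was most like that of Bdnf were Gnb5, Tanc2, Faxc and Gal3st3. Their Euclidean distances from Bdnf, on log2 values centred per gene, were 0.06 to 0.17, and their log2 changes were 1.47 to 1.55. For Ntrk3 the nearest were Disp3, Tmem132b, Zfp365, Atxn1 and Cptp, at distances of 0.06 to 0.11 and with log2 changes of 1.13 to 1.25. None of these genes passed the threshold (limma adjusted p from 0.145 to 0.274). Over 4 arrays, with 10751 genes compared, close profiles are a description only.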

How the data were processed

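Total RNA of 4 N2a samples was measured on 1-colour arrays. NimbleGen is named in the labelling protocol and fits the file format, although the design text speaks of Agilent. The authors deposited linear intensity values per target, made by RMA (robust multi-array average), per the file headers. Its background and normalization settings are unstated in the sources used here. Coordinates are those of MM9, per the files. These intensities were taken as log2 with no pseudocount, and 1 target stood for each gene, chosen by the largest mean log2 intensity across arrays. Symbols were updated through gene IDs, of which 21583 of 24203 matched a RefSeq gene.

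Men1 siRNA was compared with scramble siRNA with limma 3.58.1 (lmFit and eBayes) in R 4.3.3 over 24171 genes, with Benjamini-Hochberg adjustment and a threshold of 0.05. Targets other than those standing for a gene were fitted over all targets. For a single gene, exact permutation of 2 and 2 arrays reaches a two-sided p of 0.333 at the lowest. Precision is limited by how few arrays there were. The fit was tested on simulated data. A fold written as "at least" sets the mean of the brighter group against the dimmer one with values under 100 raised to 100. Such a fold is not a confidence limit.

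The authors' value table holds the 20620 targets at 100 or more on all 4 arrays. Of these, 20617 equalled the per-array values within a relative tolerance of 0.0001, with the scramble siRNA columns exchanged, so it is linear and uncentred. The medians of its columns were 684.7, 637.6, 667.6 and 635.1. It was used as an alternative. A reading at or above 100 was taken as well above background because of this table.

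The members, pathway lists and marker lists were chosen with earlier results of these data known. Genes named from the pathway lists were 10 ligands and receptors whatever their values, with up to 6 further genes of each list by smallest unadjusted p. Profiles were compared for the 2 members with the smallest p and every array of a group at 100 or more. Markers were named to describe their lists. Some genes that these rules select are counted in their lists but not reported here by name. Same-numbered arrays had deviations from their group means that correlated at r = −0.167, and the labels do not say what a number marks, so the numbers were not taken as pairs. Other normalizations, priors, filters, floors, targets and left-out arrays were tried as alternatives.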

Additional observations from a re-analysis of the deposited data

How the results depend on the processing

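No gene of the 8 passed the threshold under any alternative run, except Bdnf in the authors' value table (log2 change 1.50, limma adjusted p = 0.0334). In that fit, drawn from 20620 targets, 418 genes passed, against 94 of 24171 in the main fit. Ngfr and Gfra1 are not in that table. Ntrk2, Ntrk3, Ngfr, Gfra1 and Gfra2 kept their direction throughout. Bdnf was reversed at the target AY057912 alone (−0.43). Gdnf was reversed at BC119031 alone (0.53) and as the mean of its targets (0.20). With 1 array left out, Gdnf ranged from −0.62 to 0.35 and Ntf3 from −0.15 to 1.03, so neither has a settled direction. The same ranges were 1.37 to 1.63 for Bdnf, 0.24 to 0.78 for Ntrk2, 0.96 to 1.48 for Ntrk3, −1.87 to −0.86 for Ngfr, 1.04 to 2.09 for Gfra1 and 0.20 to 1.02 for Gfra2. The members at an unadjusted p under 0.05 in limma, 4 in number, were 2 with the floor at 100, against 3255 of 24171 genes there and 3435 in the main fit. In the value table they were also 2, Bdnf and Ntrk3, against 2781 genes in that fit. There the lower count reflects the absence of Ngfr and Gfra1 from the table.

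The count of all genes past the threshold, 94, was 418 in the value table, 289 with the filter on dim genes, 711 with the prior that follows intensity, 256 with a pseudocount of 32, 8 with the floor at 100, and from 0 to 0 with 1 array left out in limma, where 2105 to 3357 had an unadjusted p under 0.05. In the neurotrophin list 2 genes passed in the value table (Shc1 and Irak1) and 3 with the prior that follows intensity (with Plat). In the GDNF family list 1 passed with a pseudocount of 32 (Grb7). The cause was not tested.

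With the replicate number as a block, 69 genes and 0 members passed in limma, and no member's call changed. With the numbers crossed in the block, an alternative chosen after seeing the data, 0 genes passed and 3980 had an unadjusted p under 0.05. Readings under 100 limit Gfra1, Ngfr and Ret.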
